A study of Mus musculus with 16 samples.

Results

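The comparison set Wnt4 knock-out (KO) testis against wild-type (WT) testis of mouse embryos at embryonic day 14.5 (E14.5). It rested on 2 KO arrays and 2 WT arrays, 4 of the 16 arrays of a series that measured gonads of both genotypes, both sexes and the stages E12.5 and E14.5, with 2 arrays in each of 8 groups. The 4 arrays were chosen by genotype, tissue and age as the labels give them, without reference to any measured value, and all genes with a usable probe set were compared. The labels record the genotypes as knock-out and wild type and name no treatment, and they give neither the strain, nor the part of Wnt4 that was removed, nor whether an array held the RNA of 1 embryo or of a pool. No Cre driver or tissue restriction is named either, and gonads stayed frozen until they had been genotyped by PCR. Replicates are labelled as biological, so a p-value here measures the spread between these arrays.

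WNT4 is a secreted signalling protein of the gonad, kidney, Mullerian duct and adrenal. It acts through Frizzled receptors, and in the canonical pathway the receptor complex stabilises beta-catenin, which then works with TCF and LEF proteins to switch on targets such as Axin2, Lef1 and Notum, many of which dampen the pathway in turn. In the fetal mouse gonad WNT4 and RSPO1 push the supporting cells of the XX gonad towards pre-granulosa cells, while SRY and SOX9 push those of the XY gonad towards Sertoli cells, and steroid-producing cells resembling those of the adrenal cortex are known from gonads that lack Wnt4.

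All samples, male ones included, carry the word ovary in their titles, but the source names of the male samples give testis, which was followed here. Dhh, a signal from Sertoli cells, read 614 and 602 in KO arrays and 630.0 and 552 in WT arrays, whereas the ovary arrays of that stage without testis RNA read 11.8 to 19.2. Cyp17a1, an enzyme of androgen synthesis in Leydig cells, read 5193 and 3721 in KO arrays and 3787 and 2851 in WT arrays. The Y-linked gene Eif2s3y lay between 867 and 1071 in all 4. Replicate 2 of both groups also held ovary RNA. Xist, which is transcribed from the inactive X chromosome of females, read 7.95 and 788 in the KO arrays and 8.78 and 1087 in the WT arrays. By this gene alone, ovary RNA was estimated at 16.4% in KO replicate 2 and 22.7% in WT replicate 2. Other ovary genes need not give the same shares. Replicate 1 stood at 0% in the KO array and 0.0177% in the WT array by the same measure. Its zero was set at the lowest Xist reading of the testis arrays of the stage, which was KO replicate 1 itself. The difference between the KO and WT arrays of replicate 1 is therefore given beside the values of Galnt5 and of the lists where the replicates differed. Mean intensity ran from 280.2 to 285 over the 4 arrays, and the ratio of signal at the 3' and 5' ends of control transcripts from 1.06 to 1.36, highest in KO replicate 2.

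The targeted gene was read first. Its probe set of highest intensity gave 277 and 371 in KO testes against 753 and 512 in WT testes, and the other probe set gave 98.8 and 106 in KO testes against 272 and 165 in WT testes. Every KO array read below every WT array on both probe sets, but Wnt4 signal was still present in the KO arrays. On the log2 scale the difference was -0.94 (SE 0.358), which did not pass after adjustment over all genes (limma adjusted p = 1.0), and it was -1.43 in replicate 1 and -0.46 in replicate 2. Because the position of these probe sets relative to the deleted part of the gene is not known, the signal does not check the genotype labels.

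Galnt5 alone passed the test among 12332 genes (limma, Benjamini-Hochberg adjusted p under 0.05), which is 0.00811% of those tested, and it fell. It encodes a polypeptide N-acetylgalactosaminyltransferase of the Golgi, one of the enzymes that place the first sugar of mucin-type O-linked glycans on proteins. Galnt5 read 5.73 and 10.9 in KO testes against 49.0 and 52.8 in WT testes. Both KO arrays were far below both WT arrays, and the groups averaged 8.30 ± 3.63 in KO testes and 50.9 ± 2.69 in WT testes (SD, n = 2 each). The change was -2.19 on the log2(intensity + 4) scale (SE 0.183, adjusted p = 0.000217), a 4.56-fold difference on that scale. In replicate 1, whose arrays read 7.95 (KO) and 8.78 (WT) for Xist, the difference in Galnt5 was -2.45, and in replicate 2 it was -1.93. A fit that kept only replicate 1 of both groups gave an adjusted p of 0.000821, but with 1 array on each side its spread comes entirely from the other groups.

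Within an array, the Galnt5 probe set moved across the middle of the signal range. It ranked at percentiles 37.1 and 51.7 of all probe sets in the KO testes and at percentiles 66.2 and 67.1 in the WT testes. Galnt5 has 1 probe set on this array, so no other probe set could be set beside it, and it lay above the array median in 5 of the 16 arrays. The call rested on the spread estimated from all 16 arrays: with the 4 testis arrays alone the same difference had an adjusted p of 1.0 (0.000132 before adjustment), and with the 8 arrays of E14.5 it had 0.0589.

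The level of Galnt5 was then followed over all 8 groups. In testes at E12.5 it read 5.77 and 6.32 in KO arrays and 5.53 and 5.04 in WT arrays, so that both genotypes lay near the bottom of the range. Ovaries at E12.5 gave 5.93 and 5.70 in KO arrays and 5.28 and 5.96 in WT arrays. Ovaries at E14.5 gave 7.65 and 7.14 in KO arrays and 10.1 and 12.8 in WT arrays, of which the last holds an estimated 19.9% testis RNA. WT testes at E14.5 thus stood apart from the other 7 groups, KO testes at E14.5 overlapped both ovary groups of that stage, and the 8 arrays of E12.5 lay between 5.04 and 6.32.

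**Figure D1:**
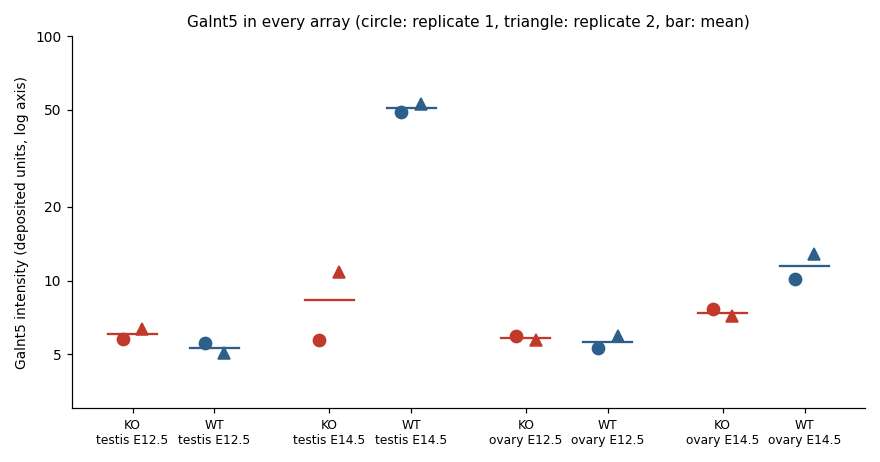
Galnt5 intensity in each of the 16 arrays on a log axis, KO left of WT within each tissue and stage, with circles for replicate 1, triangles for replicate 2 and bars for group means. The 2 WT testes of E14.5, at 49.0 and 52.8, lie above all other arrays, which reach at most 12.8.

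The knock-out effect on Galnt5 differed between stages of the testis. It was -2.19 at E14.5 and 0.11 at E12.5 on the log2 scale, a difference of -2.30 (SE 0.259, limma interaction, adjusted p = 0.00728), and Galnt5 was the only gene with such a difference among 12332 (0.00811%). In WT testes of E12.5 Galnt5 read 5.53 and 5.04, below the array medians of 10.5 and 10.4. A fall in KO testes could hardly have been measured there, so the test cannot tell whether Wnt4 loss lowers Galnt5 at E12.5. The WT arrays of E12.5 were nearly identical to each other, with an SD of their log2 differences of 0.149 against 0.388 to 0.814 in the other groups. With those 2 arrays averaged into 1, the adjusted p was 0.0852, and with the 8 testis arrays alone it was 0.136. Without WT replicate 2 of E14.5 it was 0.0664. Between the sexes at E14.5 the knock-out effect was -2.19 in testes and -0.43 in ovaries, and that difference of -1.76 did not pass (adjusted p = 0.139). WT ovaries of E14.5 read only 10.1 and 12.8 for Galnt5, near their array medians of 9.90 and 9.92. A fall as large as that in testes could hardly have been measured in ovaries. No gene passed the comparison of the sexes in limma (0 of 12332), and 295 had an unadjusted p under 0.05.

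Genes whose profile over the 16 arrays was most like that of Galnt5 were picked by Pearson correlation of log2 values, as a description over arrays that share genotype, sex and stage. The KO and WT testes compared here were among the 16 arrays, and Galnt5 was highest in these WT testes. The choice therefore favours genes that read lower in KO testes, so the differences of the picked genes are no separate evidence. Dlx5, a homeobox transcription factor, came first with r = 0.97. It read 5.54 and 7.62 in KO testes against 12.5 and 13.5 in WT testes. The KO arrays lay below the WT arrays, at a low level throughout, with a log2 difference of -0.69 (SE 0.153, adjusted p = 0.809). Dgkh, Ptger2, Pnoc, Chodl, Herc1, Col13a1, Iqcg, Kcnq5 and Timm8a2 followed with r from 0.88 to 0.77. Ptger2, a prostaglandin E receptor, read 8.60 and 10.2 in KO testes against 15.1 and 18.9 in WT testes. Pnoc, the precursor of the neuropeptide nociceptin, read 24.8 and 13.3 in KO testes against 56.4 and 24.6 in WT testes, where KO replicate 1 and WT replicate 2 were almost level.

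The other enzymes of the Galnt5 family served as a comparison within the pathway. Of 11 polypeptide GalNAc transferases tested, 10 did not pass, with log2 differences between -0.24 (Galnt3) and 0.25 (Galnt11), and 5 of the 11 were positive. Galnt1, a widely used member, read 805 and 789 in KO testes against 811 and 723 in WT testes. Galnt3 read 22.2 and 33.0 in KO testes against 29.6 and 36.5 in WT testes, with overlapping groups. The enzymes that extend such glycans were as close: none of 7 passed, and C1galt1, which adds the next sugar, read 207 and 170 in KO testes against 182 and 199 in WT testes.

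Upstream sequences of Galnt5 and of 2 further genes described below are shown because beta-catenin works through TCF and LEF proteins, whose binding motifs were searched. They are the 250 bases before the annotated gene start, from RefSeq on build GRCm38.p6, read on the strand of the gene, at the first of the 2 start sites that the table lists for Cux2 and for Rbp4 and at the single one of Galnt5. Capitals mark any of 4 motifs on either strand. The first is CTTTGAA, the next is CTTTGAT, another one is CTTTGTT and the last of them is CTTTGTA. No matches overlapped in these windows. Galnt5 (chr2:57997905-57998154, plus strand) held none of them. Cux2 (chr5:122049852-122050101, minus strand) held 1, which began 146 bases before the start, and Rbp4 (chr19:38125322-38125571, minus strand) held 1, which began 30 bases before it.
Galnt5: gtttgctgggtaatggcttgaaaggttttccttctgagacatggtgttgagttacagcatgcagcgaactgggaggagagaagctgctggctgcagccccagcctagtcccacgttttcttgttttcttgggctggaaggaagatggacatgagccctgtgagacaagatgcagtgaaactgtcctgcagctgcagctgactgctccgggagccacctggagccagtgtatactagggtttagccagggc
Cux2: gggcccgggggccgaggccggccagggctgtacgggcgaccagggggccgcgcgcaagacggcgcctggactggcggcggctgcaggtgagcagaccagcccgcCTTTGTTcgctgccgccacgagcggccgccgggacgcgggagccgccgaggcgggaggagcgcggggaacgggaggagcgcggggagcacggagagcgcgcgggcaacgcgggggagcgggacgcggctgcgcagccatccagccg
Rbp4: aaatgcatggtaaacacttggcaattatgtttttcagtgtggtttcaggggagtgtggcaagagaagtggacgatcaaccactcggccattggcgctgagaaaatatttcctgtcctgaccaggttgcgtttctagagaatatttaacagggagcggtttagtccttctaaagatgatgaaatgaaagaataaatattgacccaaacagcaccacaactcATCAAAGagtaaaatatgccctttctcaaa
Of all 32851 start sites in the table, 14.8% held at least 1 of these motifs in the same window. By gene, it was 3 of 13 among the genes of largest negative change with a start site in the table, 2 of 11 among those of largest positive change and 12.2% of the 9960 genes tested. A match describes letters in a window, not a bound site.

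Beyond Galnt5 no difference between genotypes passed the threshold. An unadjusted p under 0.05 was found for 183 genes, 1.48% of those tested, of which 104 were higher (0.843%) and 79 lower (0.641%) in KO testes. KO and WT arrays did not overlap for 1984 genes that were higher in KO testes (16.1%) and 1175 that were lower (9.53%). The median difference over all genes was 0.03, with 57.8% of genes positive. Differences above 2-fold were measured for 21 higher and 11 lower genes. The genes described next were the 15 largest on each side among those with an unadjusted p under 0.01 and groups that did not overlap, a set of 26 higher and 18 lower genes (0.357% of all), and since none but Galnt5 passed they are given as values.

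**Figure D2:**
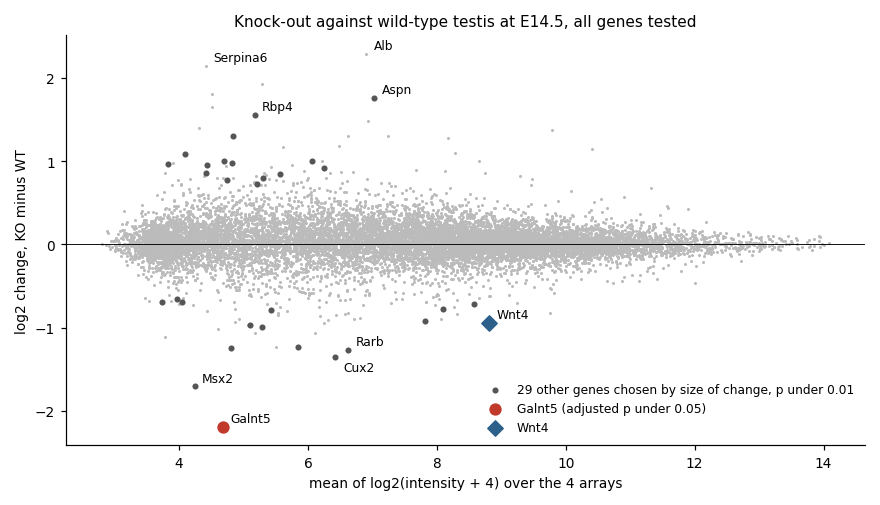
Log2 difference between KO and WT testes at E14.5 against mean log2(intensity + 4) for the 12332 genes tested, with Galnt5 in red, Wnt4 as a blue diamond and the 29 other genes of largest change in dark grey. Galnt5 lies lowest, at -2.19, while Alb and Serpina6, which lie highest, are high in 1 KO array.

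Transcription factors made up several of the largest negative differences. Msx2, a homeobox factor downstream of BMP signalling, read 5.29 and 7.80 in KO testes against 49.7 and 17.7 in WT testes (log2 difference -1.70, SE 0.362, adjusted p = 0.685). WT replicate 1 was the high array, and WT replicate 2 lay nearer to the KO arrays than to it, and without WT replicate 2 Msx2 passed (log2 difference -2.36, adjusted p = 0.0413). Cux2, a homeobox factor of neurons and limb, read 41.3 and 59.9 in KO testes against 121 and 147 in WT testes (log2 difference -1.35, SE 0.345). With 1 array left out the difference of Cux2 lay between -1.60 and -1.10, but under another alternative setting it was -0.52. Rarb, a nuclear receptor for retinoic acid, read 61.2 and 58.3 in KO testes against 185 and 120.3 in WT testes. Gata5, a zinc-finger factor, read 12.8 and 15.8 in KO testes against 38.0 and 40.4 in WT testes (log2 difference -1.24, SE 0.239, adjusted p = 0.394). Both groups of Gata5 were tight, at low intensity. Its difference was -1.32 in replicate 1 and -1.17 in replicate 2.

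The remainder of the lower set held genes of several kinds. Fhod3, an actin-assembling formin, read 26.4 and 42.6 in KO testes against 87.3 and 81.6 in WT testes. Clstn2, a calsyntenin of the cadherin family, read 113 and 227 in KO testes against 273 and 346 in WT testes. The KO arrays of Clstn2 were themselves far apart, and the upper one came near the lower WT array. Ptger4, a prostaglandin E receptor, was among the brighter genes of the set, at 303 and 283 in KO testes against 532 and 440 in WT testes (log2 difference -0.71, SE 0.211). Mrc1, the mannose receptor of macrophages, read 178 and 238 in KO testes against 375 and 337 in WT testes, and Gfra1, a receptor for GDNF, read 6.14 and 11.3 in KO testes against 18.6 and 13.2 in WT testes. The set of 15 was completed by Fndc3c1, Chodl, Vstm2a, Pkhd1 and Dlx5, with log2 differences between -0.99 and -0.69. In 10 of the 15 no array reached an intensity of 100.

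Among the genes that read higher in KO testes, Rbp4 came closest to the threshold. It encodes the carrier of retinol in blood, and it read 47.7 and 69.7 in KO testes against 20.6 and 13.9 in WT testes (log2 difference 1.55, SE 0.241, adjusted p = 0.125). Both KO arrays exceeded both WT arrays, and the difference was 1.07 in replicate 1 and 2.04 in replicate 2, the replicate whose KO array also held high levels of liver genes (described below). With a pseudocount of 16 in place of 4 it passed (adjusted p = 0.0263), and likewise without KO replicate 1 (log2 difference 1.81, adjusted p = 0.0348). Aspn, a small leucine-rich matrix protein, had the largest positive difference of the set, with 230 and 241 in KO testes against 32.1 and 135 in WT testes (log2 difference 1.76, SE 0.488). The KO arrays of Aspn were level with each other, while the WT arrays differed about as much as the genotypes did, and without WT replicate 2 Aspn passed (log2 difference 2.73, adjusted p = 0.0474). In knock-out ovaries at E14.5, compared on other arrays within the same fit, Aspn was higher by 2.59 on the log2 scale and passed the test.

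Tdrd9, a helicase of germ cells that silences transposons together with piRNAs, showed the tightest replicates. It read 49.0 and 47.2 in KO testes against 26.5 and 25.7 in WT testes (log2 difference 0.79, SE 0.148, adjusted p = 0.391), and it passed with a pseudocount of 16 (adjusted p = 0.0394). Ccl17, a chemokine, read 20.5 and 11.9 in KO testes against 6.15 and 6.11 in WT testes, and it passed without KO replicate 2 (log2 difference 1.27, adjusted p = 0.00837). Pgbd5, derived from a piggyBac transposase, read 90.9 and 90.1 in KO testes against 40.5 and 45.9 in WT testes. Agt, the precursor of angiotensin, read 22.0 and 28.0 in KO testes against 9.68 and 14.7 in WT testes. All 4 genes had both KO arrays above both WT arrays, an ordering that 16.1% of all genes share. Cyp11b1, Camp, Rtl3, Sez6l2, Cox7b2, Myl7, Dcaf8l, Magea5 and Reep2 completed the set, with log2 differences between 0.73 and 1.30, and in 13 of the 15 no array reached an intensity of 100.

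**Figure D3:**
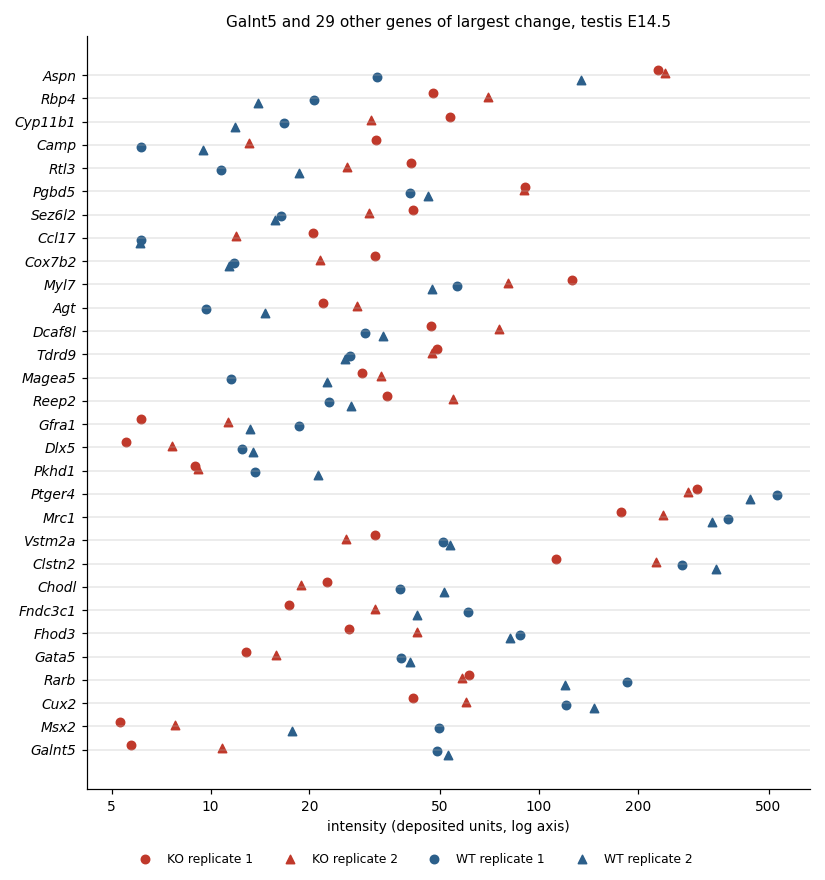
Intensity on a log axis of Galnt5 and the 29 other genes of largest change in the 4 testis arrays of E14.5, KO in red and WT in blue, circles for replicate 1 and triangles for replicate 2. The genes were chosen so that the groups do not overlap; the KO arrays of Galnt5, at 5.73 and 10.9, are separated from the WT arrays by the widest gap.

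The other knock-out comparisons of the series share no array with this one, and give the same genes side by side. By Y-linked signal, 3 of the 4 ovary arrays of E12.5 hold 6.74% to 18.0% testis RNA, as does WT replicate 2 of the ovaries of E14.5 at 19.9%. Of the 15 genes of largest negative difference, 14 were also negative in knock-out ovaries at E14.5, 10 in knock-out ovaries at E12.5 and 7 in knock-out testes at E12.5, where 54.0%, 45.1% and 36.3% of all genes were negative. Cux2, Rarb and Fhod3 were lower by more than 0.5 in all 4 comparisons, each read from its brightest probe set. Over the alternative settings in testes at E14.5, Cux2 lay between -1.60 and -0.52. Rarb lay between -1.57 and -0.96 there and Fhod3 between -1.59 and -0.92. Rarb differed by -1.27 in testes at E14.5, -1.08 in testes at E12.5, -0.93 in ovaries at E14.5 and -1.01 in ovaries at E12.5. Cux2 differed by -1.35 in testes at E14.5 and by -0.92 in testes at E12.5, -1.16 in ovaries at E14.5 and -0.59 in ovaries at E12.5. Fhod3 differed by -1.23 in testes at E14.5 and by -0.71, -1.26 and -0.90 in those 3 comparisons. Gata5, by contrast, differed by -1.24 in testes at E14.5 and by 0.20 in testes at E12.5, a change between stages that did not pass. Of the 15 genes of largest positive difference, 11 were also positive in each of the 3 other comparisons taken singly, beside 46.0% of all genes in ovaries at E14.5, 54.9% in ovaries at E12.5 and 63.7% in testes at E12.5.

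The genes that passed in knock-out ovaries at E14.5 were also read here. They numbered 67 of the 12332 (0.543%). The 42 that fell in the ovary had a median difference of -0.19 in KO testes, and 31 of them were negative, beside 42.2% of all genes. Their median was -0.40 in replicate 1 and 0.01 in replicate 2. The 25 that rose in the ovary had a median of 0.34 in KO testes, and 20 were positive, beside 57.8% of all genes. Their median was 0.45 in replicate 1 and 0.08 in replicate 2. A gene from each set, chosen after its values were seen, may serve as an example. Fmo2, a flavin-containing monooxygenase, read 165 and 103 in KO testes against 30.2 and 98.2 in WT testes, and Osr2, a zinc-finger factor of the urogenital ridge, read 218 and 283 in KO testes against 457 and 343 in WT testes. Medians in the ovary itself were -1.50 and 1.68. The genes were chosen because they passed there, which enlarges the ovary medians, so the sizes in the 2 tissues cannot be compared. The 3 genes (0.0243%) that passed in knock-out testes at E12.5, Miat, Gbp2b and Sec23ip, differed by -0.03, -0.16 and -0.06 at E14.5.

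Signalling by WNT proteins was described from the ligand down. Lists are described by counts, beside the 42.2% of all genes that were negative and the 57.8% that were positive. With each of the 4 arrays left out in turn, the median of 11 of the 30 lists kept its sign and that of 19 changed it at least once. Of 9 WNT ligands tested, none passed and 4 were negative, Wnt4 furthest, with 7 of 9 negative in replicate 1. Their median was 0.05, and it lay between -0.12 without WT replicate 2 and 0.16 without KO replicate 1. Wnt5a, a ligand of non-canonical pathways in mesenchyme, read 1623 and 1714 in KO testes against 1422 and 1579 in WT testes. Wnt6 read 492 and 545 in KO testes against 567 and 375 in WT testes, with the KO arrays inside the WT range. Wnt9a read 17.9 and 19.9 in KO testes against 24.8 and 31.7 in WT testes.

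Receptors and secreted modulators were likewise below the threshold. Of 20 receptors and co-receptors 13 were negative, with a median of -0.12 beside 0.03 over all genes. In replicate 1 it was 16 of 20 with a median of -0.22, and without KO replicate 1 the median was -0.05, against -0.18 without KO replicate 2. Lgr6, a receptor for R-spondins, read 7.54 and 10.8 in KO testes against 16.5 and 13.8 in WT testes, and Fzd8 read 77.1 and 84.6 in KO testes against 72.2 and 39.7 in WT testes. Of 14 R-spondins and modulators 7 were negative, and their median lay between -0.16 without KO replicate 2 and 0.06 without WT replicate 2. Wif1, which binds and blocks WNT proteins, differed most: it read 15.2 and 41.9 in KO testes against 47.5 and 90.2 in WT testes (log2 difference -1.23, SE 0.461). Replicate 2 was higher than replicate 1 in both genotypes of Wif1, so that KO replicate 2 came close to WT replicate 1. Rspo1 read 176 and 233 in KO testes against 147 and 265 in WT testes.

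The feedback targets of beta-catenin all had negative differences, 14 of 14 tested, with a median of -0.31, and none passed. Lgr5, Rnf43 and Znrf3 are also in the receptor list, Notum and Dkk1 in the modulator list, and Lgr5 and Lef1 in the pre-granulosa list. These lists are therefore not separate observations. The size of the target median came from replicate 1, where all 14 were negative with a median of -0.61, beside 46.4% of all genes negative. In replicate 2, whose arrays hold ovary RNA, 7 of 14 were negative with a median of 0.01, beside 42.7% of all genes. Notum, a secreted enzyme that inactivates WNT proteins, read 10.2 and 36.2 in KO testes against 58.6 and 31.1 in WT testes. KO replicate 1 was the low array of Notum, and the groups overlapped. Nkd1, an inhibitor of Dishevelled, read 142 and 291 in KO testes against 351 and 298 in WT testes, and Axin2, a scaffold of the destruction complex, read 107 and 112 in KO testes against 157 and 119 in WT testes. Ccnd1, the cyclin of the G1 phase, was the one of the 14 with an unadjusted limma p under 0.05, at 565 and 834 in KO testes against 845 and 988 in WT testes. Without KO replicate 1 the median of the list was -0.09 and 5 of 14 were positive, without WT replicate 1 it was -0.17 with 4 positive, and without KO replicate 2 it was -0.54. With the estimated share of opposite-sex RNA in each array as a covariate, the median was -0.29 and 13 of 14 were negative. How far ovary RNA entered the replicate 2 values of each gene was not tested. In bulk tissue, fewer cells of a type and less RNA per cell cannot be told apart.

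**Figure D4:**
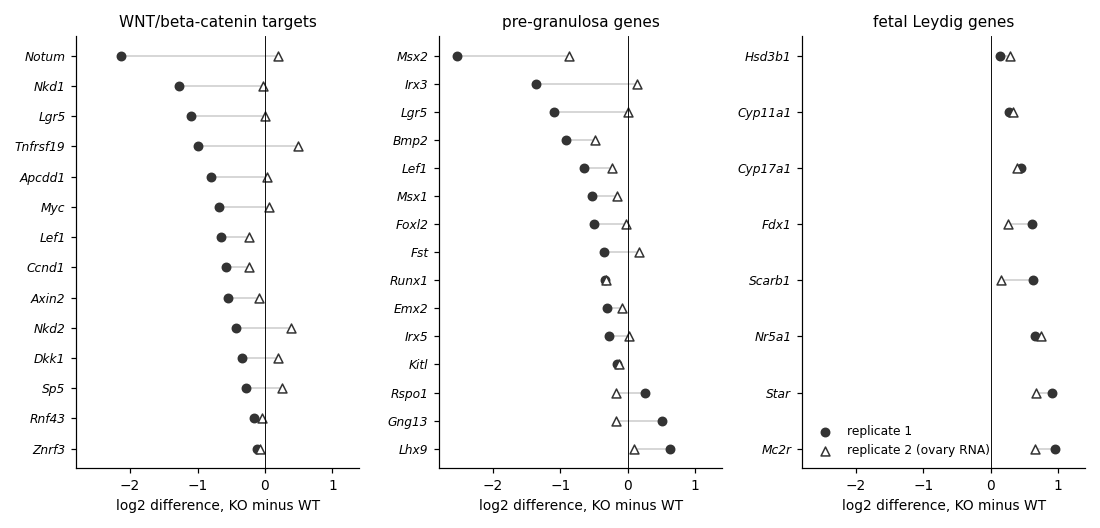
Log2 difference between KO and WT testes at E14.5 for each tested gene of 3 lists, with filled circles for the arrays of replicate 1 and open triangles for those of replicate 2, which hold ovary RNA. All 14 WNT targets lie left of 0 in replicate 1 and 7 of 14 do in replicate 2, whereas all 8 fetal Leydig genes lie right of 0 in both.

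Supporting cells were read from genes of both sexes. Of 15 pre-granulosa genes 12 were negative, with a median of -0.27, and none passed. The summed level of this list was 3065 and 4073 in KO testes against 2987 and 4228 in WT testes, higher in replicate 2 of both groups, the arrays that hold ovary RNA. Foxl2, the transcription factor that maintains granulosa cells, read 7.76 and 22.2 in KO testes against 12.7 and 22.7 in WT testes. Irx3, a homeobox factor of pre-granulosa cells, read 23.5 and 148 in KO testes against 66.6 and 134 in WT testes. In both genes the replicates differed more than the genotypes. The median of the 15 genes was 0.03 without KO replicate 1, -0.11 without WT replicate 2, -0.42 without WT replicate 1 and -0.62 without KO replicate 2. With the estimated share of opposite-sex RNA as a covariate it was -0.14, and 11 of 15 were negative.

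Sertoli genes were positive in 17 of 22 cases, with a median of 0.21, and none passed. In replicate 1 it was 14 of 22 with the same median, which was 0.42 without KO replicate 2. Without WT replicate 1 it was 13 of 22 with a median of 0.30, and without WT replicate 2 it was 13 of 22 with 0.16. Of all genes, 57.8% were positive in the main fit. Sox9, the factor that starts Sertoli differentiation, read 95.1 and 101 in KO testes against 114 and 107 in WT testes. Amh, the hormone that removes the Mullerian duct, read 42.7 and 31.3 in KO testes against 20.2 and 39.6 in WT testes, with overlapping groups. Hsd17b1, an enzyme of steroid conversion, differed most, at 166 and 112 in KO testes against 103 and 51.4 in WT testes (log2 difference 0.86, SE 0.384). Genes of Desert hedgehog and Notch signalling between Sertoli and interstitial cells were positive in 12 of 17 cases with a median of 0.04, and in 8 of 17 with a median of -0.04 in replicate 1. Their median was -0.01 without KO replicate 2 and 0.16 without KO replicate 1. Heyl, a target of Notch, read 133 and 114 in KO testes against 72.4 and 69.3 in WT testes, and Ptch1, the hedgehog receptor, read 4041 and 4204 in KO testes against 4022 and 4095 in WT testes.

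Steroid-producing cells gave positive differences throughout, none of which passed. All 8 tested genes of fetal Leydig cells were positive, with a median of 0.43 that was 0.62 in replicate 1 and 0.35 in replicate 2. Star, which brings cholesterol into mitochondria, read 1072 and 805 in KO testes against 568 and 505 in WT testes. Fdx1, the electron donor of the mitochondrial enzymes, read 3997 and 3164 in KO testes against 2606 and 2646 in WT testes (log2 difference 0.44, SE 0.195). Nr5a1, the transcription factor of steroidogenic cells, read 244 and 157 in KO testes against 153 and 91.8 in WT testes. Standard errors were wide for some of the list, 1.57 for Cyp17a1 and 1.37 for Cyp11a1, in a fit whose shared spread also covers the ovary arrays. Cyp17a1 read 6.58 in WT ovary replicate 1 of E14.5 and 1459 in replicate 2, the array with 19.9% testis RNA. Leaving out KO replicate 1 or WT replicate 2 left 7 and 6 of the 8 positive, and the median was 0.30 without KO replicate 1 and 0.64 without KO replicate 2.

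Genes of the adrenal cortex, whose cells share much of this machinery, were positive in 7 of 7 cases with a median of 0.51. Cyp11b1, the enzyme that completes corticosterone synthesis in the adrenal cortex, read 53.8 and 30.7 in KO testes against 16.7 and 11.9 in WT testes (log2 difference 1.30, SE 0.430, adjusted p = 1.0). Mc2r, the receptor for ACTH, read 37.8 and 23.3 in KO testes against 17.6 and 13.4 in WT testes. Cyp21a1, a hydroxylase of adrenal steroid synthesis, read 31.0 and 12.05 in KO testes against 8.30 and 11.3 in WT testes, where only KO replicate 1 stood out. At these low intensities the KO arrays of Cyp11b1 and Mc2r lay above the WT arrays. Mc2r and Hsd3b1 are in both lists, and the median of the adrenal list was 0.23 without KO replicate 1 and 0.78 without KO replicate 2. Chromaffin and sympathetic genes, which mark the adrenal medulla and nearby ganglia, were positive in 6 of 11 cases with a median of 0.08, which was -0.06 without KO replicate 2 and -0.02 without WT replicate 1. Th, the first enzyme of catecholamine synthesis, read 5.04 and 4.93 in KO testes against 5.76 and 5.55 in WT testes. Hand2, a factor of sympathetic neurons that other mesenchyme also uses, read 138 and 184 in KO testes against 383 and 245 in WT testes.

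Germ cells of either sex gave 14 positive differences among 16 tested genes, with a median of 0.24, and none passed. Without WT replicate 1 it was 5 of 16 with a median of -0.06, and without KO replicate 2 it was 8 of 16. Pou5f1, a pluripotency factor of fetal germ cells, read 624 and 532 in KO testes against 405 and 246 in WT testes, with an SE of 0.897. Ddx4, a helicase of all germ cells, read 1509 and 2015 in KO testes against 987 and 2009 in WT testes, where WT replicate 1 was the low array. All 9 genes of male germ cell differentiation were positive, with a median of 0.25 that was 0.15 with 5 of 9 positive when WT replicate 1 was left out and 0.57 when WT replicate 2 was. Of 19 meiosis genes 11 were positive, with a median of 0.08, and 16 were positive in replicate 1 but 4 in replicate 2. Without WT replicate 1 it was 2 of 19, and without WT replicate 2 it was 19 of 19. With the estimated share of opposite-sex RNA as a covariate it was 15 of 19, with a median of 0.20. Stra8, which starts meiosis in the fetal ovary, read 9.88 and 64.2 in KO testes against 5.55 and 104 in WT testes. The high arrays of Stra8 were those with ovary RNA.

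Vessels, stroma and surface epithelium gave small differences. Of 16 endothelial genes 13 were positive with a median of 0.13. In replicate 1 it was 8 of 16 with a median of -0.01, and in replicate 2, which holds ovary RNA, 15 of 16 with 0.19. The endothelial median was 0.05 without WT replicate 2 and 0.25 without WT replicate 1. Tie1, a receptor of endothelial cells, read 130 and 142 in KO testes against 112 and 82.8 in WT testes. Arterial genes were positive in 4 of 8 cases with a median of 0.02, which was -0.10 without WT replicate 1 and 0.14 without WT replicate 2. Genes of peritubular and smooth muscle cells were positive in 7 of 8 cases with a median of 0.16, but in 4 of 8 with a median of -0.06 without WT replicate 2. Interstitial genes were positive in 8 of 15 cases with a median of 0.01, which was -0.07 without KO replicate 2. Surface epithelium was negative in 8 of 10 cases with a median of -0.26, and in 6 of 10 with -0.17 in replicate 1. The median was -0.10 both without WT replicate 1 and without KO replicate 2. Krt18, a keratin of simple epithelia, read 682 and 787 in KO testes against 1162 and 1042 in WT testes (log2 difference -0.58, SE 0.173, limma adjusted p = 1.0). Both KO arrays of Krt18 lay clearly below both WT arrays, although its partner Krt8, at 490.0 and 449 in KO testes against 689 and 476 in WT testes, had overlapping groups.

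Activin, inhibin and BMP genes were negative in 10 of 15 cases with a median of -0.09. In replicate 1 it was 13 of 15 with -0.32 and in replicate 2 it was 7 of 15 with 0.05, and the median was -0.03 without KO replicate 1 and -0.26 without KO replicate 2. Bmp4, a signal for germ cells and ducts, read 254 and 237 in KO testes against 461 and 297 in WT testes, and Inhba, the activin A subunit that shapes the epididymis and testis cords, read 99.5 and 185 in KO testes against 205 and 231 in WT testes. Genes of mesonephros and genital ducts were negative in 7 of 10 cases with a median of -0.15, which was -0.54 in replicate 1 and 0.13 in replicate 2, and 0.12 without KO replicate 1. Macrophage genes were negative in 8 of 13 cases with a median of -0.13, which was -0.31 in replicate 1 and -0.01 without WT replicate 1. Proliferation genes were positive in 8 of 15 cases (median 0.02), p53 targets in 7 of 9 (0.03), immediate early and heat shock genes in 8 of 13 (0.01), cholesterol synthesis in 10 of 13 (0.05), erythroid genes in 5 of 9 (0.12) and striated muscle and cartilage genes in 10 of 14 (0.07). Genes that extend O-linked glycans were negative in 5 of 7 cases (-0.05). Of these 7 small medians, 6 changed sign when an array was left out, that of erythroid genes between -0.27 without WT replicate 1 and 0.49 without KO replicate 1, whereas that of muscle and cartilage lay between 0.04 and 0.35. Over the 30 lists, 354 of 429 distinct members were tested and 1, Galnt5, passed.

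Genes of other organs marked single arrays. The list of digestive tract and pancreas genes, which holds several liver products, had a summed level of 826 and 8305 in KO testes against 845 and 888 in WT testes, so that KO replicate 2 stood apart. Afp, the fetal counterpart of albumin, read 357 and 5564 in KO testes against 567 and 523 in WT testes. Alb read 32.6 and 1898 in KO testes against 63.5 and 39.1 in WT testes, and Ttr, the thyroid hormone carrier, read 11.7 and 367 in KO testes against 18.9 and 13.6 in WT testes. Serpina6, Apoa2, Apom, and the red cell genes Rhag and Hemgn followed the same pattern and were named after their values had been seen. Serpina6, the corticosteroid-binding globulin made by liver, read 5.82 and 201 in KO testes against 7.17 and 5.20 in WT testes. Of the lists, this one had the largest median, 1.02, which was -0.12 in replicate 1, 1.76 in replicate 2 and -0.13 without KO replicate 2. Alas2, a red cell enzyme of heme synthesis, did not follow the pattern, at 365 and 382 in KO testes against 347 and 506 in WT testes. In replicate 1 Rbp4 differed by 1.07, Alb by -0.88 and Afp by -0.66, and the part of liver RNA in the Rbp4 difference was not tested.

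Several neutrophil genes, but not Mpo, were highest in KO replicate 1 among the 4 testis arrays of E14.5. Camp, an antimicrobial peptide of neutrophil granules and one of the 15 genes of largest positive difference, read 31.8 and 13.1 in KO testes against 6.16 and 9.50 in WT testes. Ngp, another granule protein, read 115 and 9.63 in KO testes against 7.59 and 10.2 in WT testes, and S100a8 read 863 and 229 in KO testes against 112 and 292 in WT testes. Mpo, the myeloperoxidase of neutrophil granules, read 14.9 and 25.3 in KO testes against 10.9 and 31.5 in WT testes, so that the replicate 2 arrays were the higher ones. Ngp, S100a8 and Mpo were named after their values had been seen. Over the 16 arrays the next highest Ngp reading was 22.3, in a knock-out ovary of E12.5. High readings of S100a8 also occurred among ovaries of E14.5, with 539 and 753 in knock-out arrays and 391.5 and 126.8 in WT arrays. Lyz2, which is also in the macrophage list, read 123 and 116 in those knock-out ovaries and 85.5 and 47.5 in the WT ovaries. For Lyz2, both knock-out ovaries and WT ovary replicate 1 thus lay above the 77.7 of KO testis replicate 1. Of the 12332 genes, those more than 2-fold above the other 3 arrays numbered 13 in KO replicate 1 and 16 in KO replicate 2, against 4 and 4 in the WT arrays. Genes more than 2-fold below the other 3 numbered 16 in KO replicate 1 and 1 in KO replicate 2, against 10 in WT replicate 1 and 2 in WT replicate 2.

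**Figure D5:**
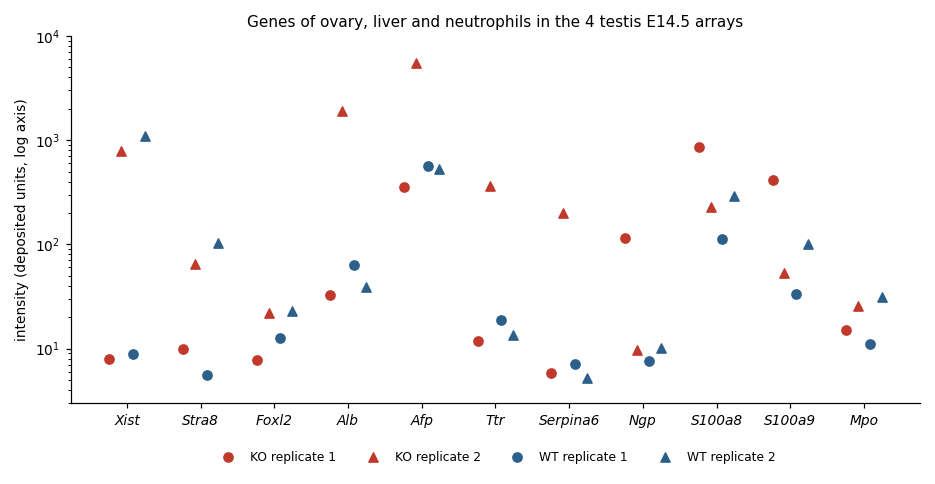
Intensity on a log axis of genes of ovary (Xist, Stra8, Foxl2), liver (Alb, Afp, Ttr, Serpina6) and neutrophils (Ngp, S100a8, S100a9, Mpo) in the 4 testis arrays of E14.5, KO in red and WT in blue, circles for replicate 1 and triangles for replicate 2. Ovary genes are high in replicate 2 of both genotypes, liver genes in KO replicate 2 alone, with Alb at 1898, and Ngp, S100a8 and S100a9 in KO replicate 1, whereas Mpo is not.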

How the data were processed

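Biotin-labelled cRNA from 8 ug of total RNA per sample was hybridised to Affymetrix Mouse430_2 arrays, per the labels' protocols. The authors deposited 1 linear intensity for each of 45101 probe sets. The submitters' processing notes name MAS5 for these deposited intensities, and its version and scaling target are unknown here. Array means, each trimmed by 2% at both ends, stayed within 1.059-fold of one another, so no rescaling was done. Deposited intensities were converted to log2(intensity + 4), where 4 is the rounded median of the arrays' 20th percentiles. A fold change on that scale understates the change of dim genes.

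The 64 control probe sets were left out. By the platform annotation of 2016, 34945 probe sets had 1 symbol, 932 had several and 9160 are unnamed here. A probe set entered if it exceeded the median of its array in 2 or more arrays, and the brightest one stood for each gene, which left 12332 genes. A single linear model with 8 group means covered the 16 arrays (limma 3.58.1 in R 4.3.3, lmFit and trended eBayes, residual degrees of freedom 8, prior 5.23). P-values are two-sided and adjusted by Benjamini-Hochberg over every gene, with 0.05 as threshold. Differences of the knock-out effect between stages and sexes were contrasts of the same fit. The code was tested on simulated data. With 2 arrays a group, the number of arrays limits the precision.

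Ovary RNA was estimated from Xist relative to the mean of the ovary arrays of the stage, with the lowest testis array of the stage as zero. Genes named were Wnt4, Galnt5, the 15 largest differences on each side with unadjusted p under 0.01 and groups that do not overlap, up to 4 members of each of 30 lists by smallest p, the WNT and GalNAc transferase genes and the 10 genes correlated best with Galnt5. Other list members were named for their known role with their values in view. Members and lists were chosen with earlier results of these data known. Alternatives covered the pseudocount, filter, normalization, variance model, arrays fitted, probe-set summary, replicate block, ovary RNA as a covariate and leaving out each array. A fit of all probe sets with or without a symbol was added after seeing the data.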

Additional observations from a re-analysis of the deposited data

Results flagged for a closer look

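The knock-out effect on Galnt5 differed between the stages of the testis by a test of the difference itself. It was -2.19 at E14.5 and 0.11 at E12.5 on the log2 scale, a difference of -2.30 (SE 0.259, limma adjusted p = 0.00728). That p was 0.0852 with the WT testes of E12.5 averaged into 1 array, 0.136 with the 8 testis arrays alone and 0.0664 without WT replicate 2 of E14.5, and a further fit that missed the threshold is given with the dependence on the processing. Galnt5 read 5.73 and 10.9 in KO testes against 49.0 and 52.8 in WT testes at E14.5, and 5.77 and 6.32 in KO testes against 5.53 and 5.04 in WT testes at E12.5. Both KO testes of E14.5 were lower than both WT testes, whereas both KO testes of E12.5 were slightly higher than both WT testes. All 4 testis arrays of E12.5 lay below the median of all probe sets on the same array. A fall in KO testes could therefore hardly have been measured at E12.5.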

How the results depend on the processing

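Galnt5 kept its direction under all 24 alternatives run, from -2.54 to -1.47 on the log2 scale, and passed under 22 of them; it did not pass with only the 4 testis arrays of E14.5 (-2.19, adjusted p = 1.0) or only the 8 arrays of E14.5 (-2.19, 0.0589). With 1 array left out it lay between -2.50 and -1.88. The number of genes past the threshold, 1 in the main setting, was 3 with a pseudocount of 16 (Galnt5, Rbp4 and Tdrd9), 0 in each of those smaller fits, where 257 and 203 genes had an unadjusted p under 0.05, and 2 with replicate 1 of both groups only, where the spread comes from other groups. With 1 array left out it ranged from 1 to 10: 10 without KO replicate 1, among them Alb, Apoa1 and Serpina6, which are high in KO replicate 2; 3 without KO replicate 2, Ccl17 and Ngp with Galnt5; and 4 without WT replicate 2, Aspn, Msx2 and Gm364 with Galnt5.

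For the difference between stages the count was 3 with array weights, 2 with replicate 1 only, and 0 with only the 8 testis arrays (1126 with an unadjusted p under 0.05) or with the WT testes of E12.5 averaged (244), and 0 to 7 with 1 array left out. Galnt5 then stood at -2.30 with adjusted p of 0.136 and 0.0852, and at -2.61 to -1.998 with 1 array left out, where it missed the threshold without WT replicate 2 (0.0664). For the difference between sexes the count was 2 with a pseudocount of 16, 5 with array weights, 9 with the share of opposite-sex RNA as a covariate and 0 to 7 with 1 array left out. Galnt5 passed there at -1.24, -1.76 and -1.68 under those settings and at -2.06 without KO replicate 2, and lay between -2.06 and -1.45 with 1 array left out. The causes were not tested.

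With the replicate number as a block, 1 gene passed as before, Galnt5 with adjusted p = 0.0173, while its difference between stages was -2.30 with adjusted p = 0.185 and the count of that comparison 0 (417 with an unadjusted p under 0.05). Deviations of same-numbered KO and WT testes of E14.5 correlated at 0.58 over genes, but only 2 pairs exist and both replicate 2 arrays hold ovary RNA, so the numbers were not taken as pairs. Of 693 alternative values of the 29 other genes, 687 kept direction and side of the threshold, 6 passed and none reversed. Dim signal limits most of the named genes.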
